A study of Homo sapiens with 12 samples.

Results

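Aminoacyl-tRNA synthetases are the enzymes that load each transfer RNA (tRNA) with its amino acid. They were taken as every gene name made of an amino acid letter, ARS and the suffix 1 or 2, with EPRS1 added. This gave 35 of the 60645 gene names counted. The 17 genes with the suffix 1 and EPRS1 code for the 18 cytosolic members, and the 17 genes with the suffix 2 for the mitochondrial members. FARSA, FARSB and TARS3 are related genes that the rule leaves out, and they were kept apart. PolyA RNA was sequenced from the line named 12KO, an ARID1A knockout of HEK-293T, which derives from human embryonic kidney. ARID1A belongs to the SWI/SNF (BAF) complex, which remodels chromatin, and IDR1b is a stretch of it without a fixed fold. EWS-FLI1 is the fusion transcription factor of Ewing sarcoma. The study asked how IDR1b acts in gene regulation by EWS-FLI1.

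All 6 groups carried the knockout, and each held 2 libraries. In the state called no ARID1A the cells received an empty vector in place of ARID1A. In the states called WT and ΔIDR1b they overexpressed wild-type ARID1A or ARID1A lacking IDR1b. In each state the cells also received either a further empty vector or EWS-FLI1, given as 2 µg of plasmid 48 h before harvest. The control of every comparison is therefore a knockout line, and all introduced genes were overexpressed. The labels do not say whether the line is 1 clone. They also do not say whether the 2 repeats of a group were separate cultures, so the p-values measure only the spread between these libraries, which may be technical.

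The cytosolic synthetases charge tRNA for protein synthesis on cytosolic ribosomes. The mitochondrial synthetases are made from nuclear genes, imported, and charge the tRNA of the mitochondrial genome. Most amino acids have a separate gene for each compartment, while GARS1 (glycine) and KARS1 (lysine) give both enzymes from the same gene, and EPRS1 joins the glutamyl and prolyl enzymes in a single protein. Several cytosolic synthetase genes are known targets of ATF4, the transcription factor of the amino acid response, which binds a short composite element with C/EBP partners.

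Library totals ran from 11702251 to 14445379 counts, and values below are CPM, that is, counts scaled to a common library size with TMM factors (trimmed mean of M-values). ARID1A stood at 147 to 164.5 CPM without an ARID1A plasmid, at 1843 to 2291 CPM in WT and at 2608 to 2878 CPM in ΔIDR1b. FLI1 reached 1688 to 1830 CPM with EWS-FLI1 in no ARID1A, 3462 to 3675 CPM in WT and 1888 to 1906 CPM in ΔIDR1b. The repeats of WT with EWS-FLI1 differed most, with a chi-square per degree of freedom of 12.1 against 3.02 to 6.13 in the other groups. Of 7 markers of the line, VIM, KRT8, KRT18, NEFL, PAX2 and LHX1 were detected in every library, and NEFM reached at most 0.0747 CPM. Among 6 markers of other cell types, PTPRC, PECAM1 and MYH6 stayed at or below 0.224 CPM. The sum of those 6 was 76.2 to 81.1 CPM in no ARID1A, 74.2 to 93.9 CPM in WT and 97.8 to 107.8 CPM in ΔIDR1b, nearly all of it COL1A1, and its part in the results below was not tested. Of the markers of the line, KRT8 was higher in WT than in no ARID1A with both vectors (log2 0.44 and 0.55), and VIM (-0.28 and -0.37) and NEFL (-0.32 and -0.69) were lower in ΔIDR1b, and their part was not tested either.

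All 35 members were expressed in every library and passed the filter on low counts. Per kb of the principal transcript, a length chosen after the data were seen, the median level over the 12 libraries was 62.7 CPM per kb for the 18 cytosolic members and 12.6 CPM per kb for the 17 mitochondrial members. SARS1, the seryl enzyme, was the highest at 351.6 CPM per kb (324.7 to 376.5 over the libraries), followed by the alanyl enzyme AARS1 at 145 CPM per kb. HARS1, the histidyl enzyme, was the lowest cytosolic member at 39.1 CPM per kb. Among the mitochondrial members the isoleucyl enzyme IARS2 stood apart at 57.5 CPM per kb, above 8 of the cytosolic members, and the valyl enzyme VARS2 was last at 0.787 CPM per kb. The means of all other mitochondrial members lay below the mean of every cytosolic member. Only SARS1 at the top and VARS2 at the bottom were separated from their neighbour in this order, and between them the ranges over libraries of all neighbouring members overlapped. Other annotated genes cover 63% of the exonic bases of VARS2 and 48.2% of those of SARS2, the next above it. Fragments on shared bases were not counted, so both levels may be understated. The part of this in their place in the order was not tested. SARS1 had 685 and 601 CPM in no ARID1A, 664 and 697 CPM in WT and 625 and 607 CPM in ΔIDR1b with the empty vector, and 636 and 657, 640.3 and 673, and 638 and 689 CPM with EWS-FLI1. IARS2 had 194 and 221, 203 and 206, and 197 and 203 CPM with the empty vector and 209 and 195, 215 and 201, and 198 and 215 CPM with EWS-FLI1. The states overlapped for both genes, and neither was called between any states. Dividing by all annotated exonic bases instead gave medians of 34.9 and 5.70 CPM per kb, and it set HARS1 (6.74) below several mitochondrial members, its annotated exons covering 14155 bases and its principal transcript 2440.

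**Figure D1:**
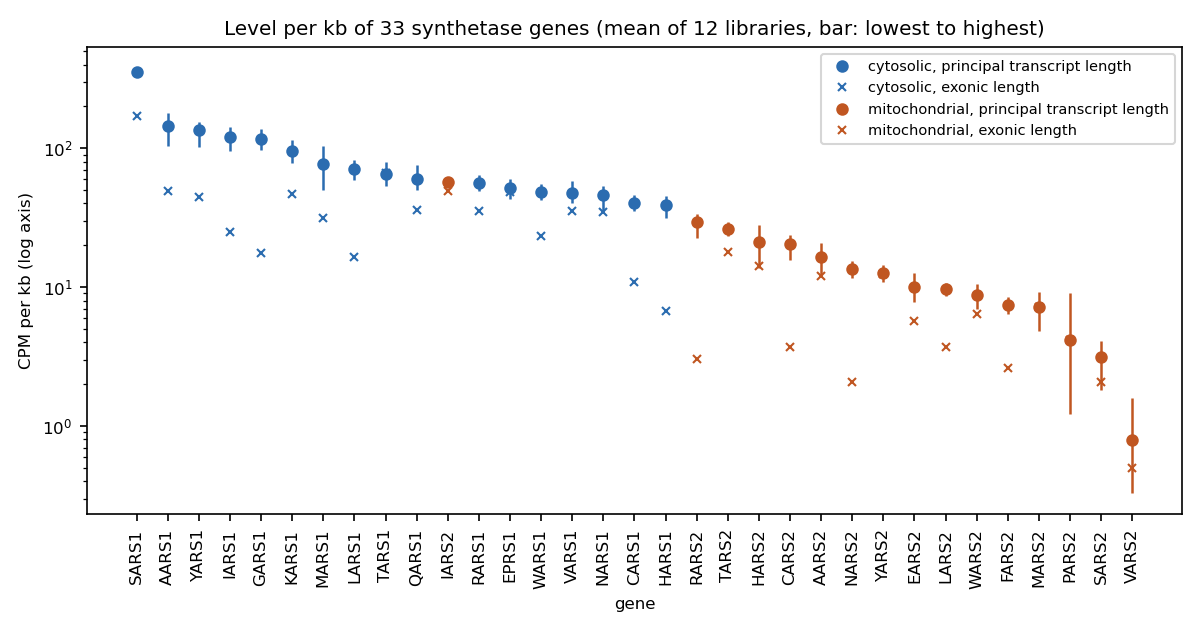
Level per kb of 33 of the genes on a log axis, ordered by the value per principal transcript length. Filled points are means of the 12 libraries with bars from the lowest to the highest library, and crosses use all annotated exonic bases. IARS2 is the only mitochondrial point among the cytosolic ones, and VARS2 lies lowest at 0.787 CPM per kb. Fragments on the 63% of exonic bases that VARS2 shares with another gene were not counted.

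Restoring wild-type ARID1A was compared with no ARID1A first. The cytosolic synthetases rose as a partial set and none fell. With the empty vector 7 of 18 were higher and 0 lower (edgeR quasi-likelihood test, Benjamini-Hochberg adjusted p under 0.05), while 6.5% of the 20377 genes tested were higher and 5.19% lower (11.7% in all). With EWS-FLI1 the count was again 7 higher and 0 lower, against 9.72% higher and 8.36% lower over all genes (18.1% in all). In the EWS-FLI1 libraries FLI1 was also higher in WT (3462 to 3675 CPM) than in no ARID1A (1688 to 1830 CPM). There the ARID1A state and the amount of the fusion cannot be told apart. The mitochondrial members split. Of these 0 rose and 2 fell with the empty vector, and 3 rose and 2 fell with EWS-FLI1. The median log2 fold change of the cytosolic members was 0.21 in the empty-vector libraries and 0.20 in the EWS-FLI1 libraries, that of the mitochondrial members was -0.01 and 0.04, and that of all genes tested was -0.01 and -0.02. By direction alone, 17 of the 18 cytosolic members had a positive fold change with each vector. Upper-quartile scaling gave 5 higher and 3 lower among all 35 members with the empty vector, where the main scaling gave 7 and 2. The count of members called with the empty vector, 9, was 5 and 1 without the first and the second repeat of no ARID1A, and 4 without the first of WT. With EWS-FLI1 it was 12, and 5 and 6 without the first and the second repeat of no ARID1A. Since these are bulk libraries, fewer cells of a kind and less RNA per cell cannot be told apart.

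Members called the same way with both vectors were AARS1, IARS1, MARS1, NARS1, TARS1 and YARS1, all cytosolic and all higher, and the mitochondrial HARS2 and VARS2, both lower. Over all genes tested, 4.84% were higher and 3.52% lower with both vectors. The contrasts of the 2 vectors share no library. The complex of synthetases that assembles in the cytosol (the multi-synthetase complex) held 2 of the 6 that rose, IARS1 and MARS1, out of 8 enzymes of the complex, and the other 4 were among its 10 free cytosolic counterparts. Without the second repeat of no ARID1A with the empty vector, only MARS1 of the 8 was still called with both vectors. Leaving out other single libraries gave 3 to 9 members, 3 without the first repeat of no ARID1A with EWS-FLI1, 4 without the first of WT with the empty vector and 5 without the first of no ARID1A with the empty vector.

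**Figure D2:**
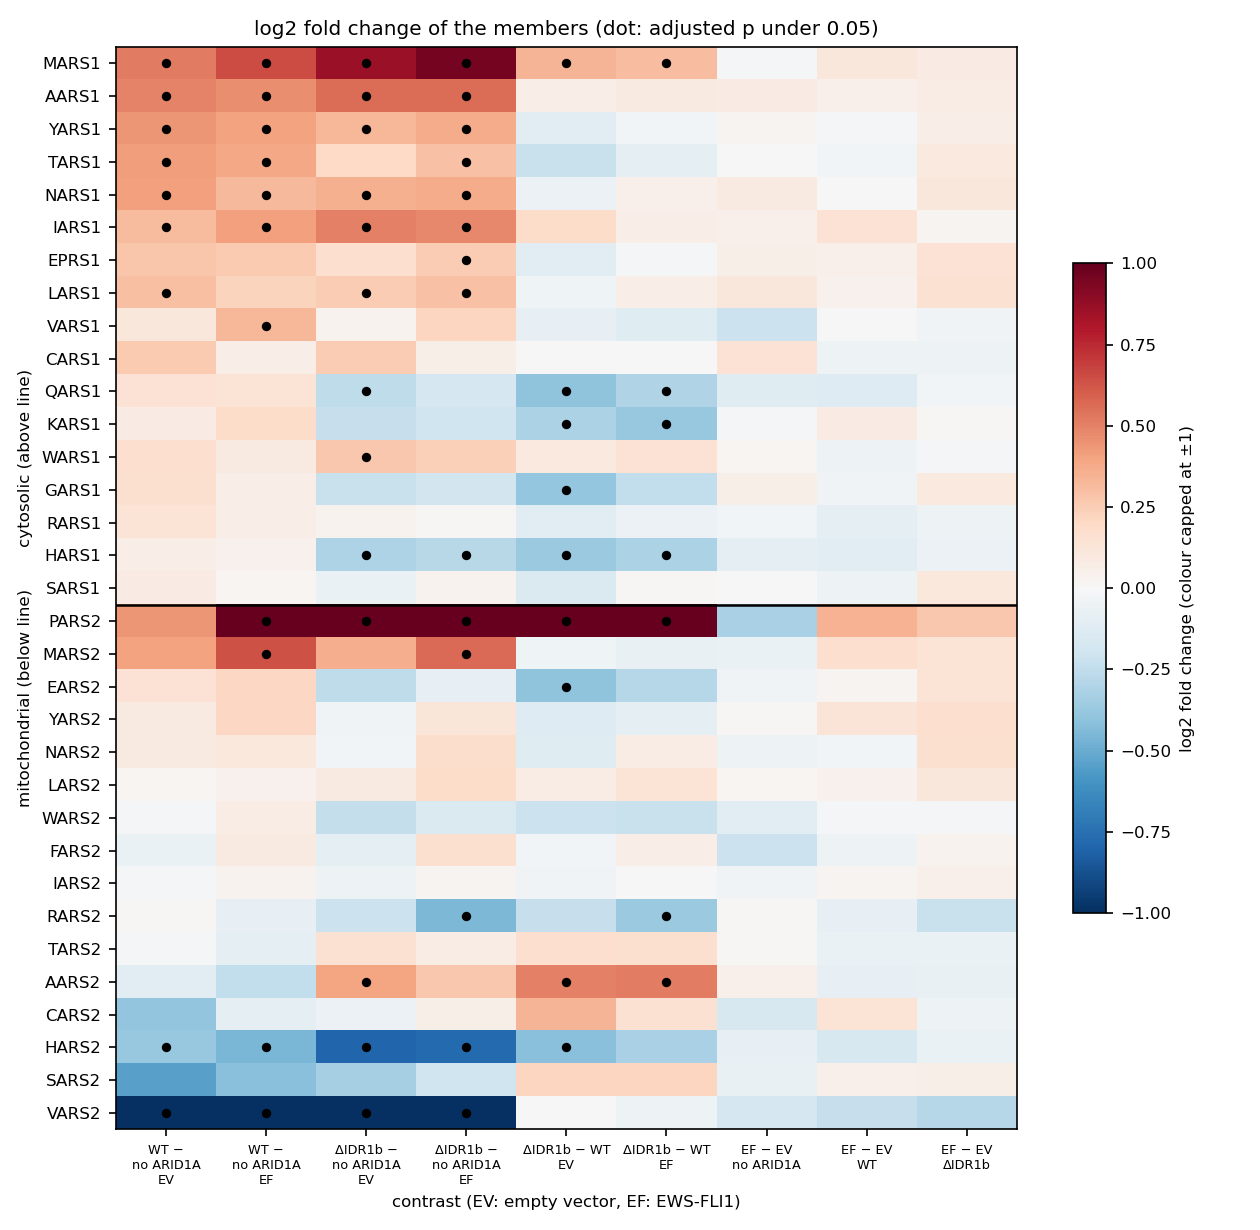
Log2 fold change of 33 members (rows, cytosolic above the line) in the 6 contrasts between ARID1A states and the 3 contrasts of EWS-FLI1 with the empty vector (columns). Colour is capped at 1 and dots mark adjusted p under 0.05. The upper left block of cytosolic genes is red and dotted, and the 3 columns of EWS-FLI1 against empty vector at the right hold 0 dots.

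In the coordinates of the count files (GRCh38) the 6 cytosolic genes lie with MARS1 at chr12:57475445-57517569 (plus strand), AARS1 at chr16:70251983-70289707 (minus strand), YARS1 at chr1:32775237-32818031 (minus strand), IARS1 at chr9:92210207-92293854 (minus strand), NARS1 at chr18:57600656-57622213 (minus strand) and TARS1 at chr5:33440696-33468091 (plus strand). The mitochondrial genes described here lie with HARS2 at chr5:140691430-140699305 (plus strand), VARS2 at chr6:30914205-30926459 (plus strand), PARS2 at chr1:54756898-54764523 (minus strand) and AARS2 at chr6:44298731-44313347 (minus strand). Of the cytosolic genes described further on, HARS1 lies at chr5:140673035-140691537 (minus strand), KARS1 at chr16:75627474-75648643 (minus strand), QARS1 at chr3:49095932-49105130 (minus strand) and GARS1 at chr7:30580533-30634033 (plus strand). Counts cover all annotated exons of each gene, untranslated regions included.

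MARS1, which charges methionine and sits in the multi-synthetase complex, changed most among the cytosolic members. With the empty vector it had 161 and 146 CPM in no ARID1A, 224 and 216 CPM in WT and 288 and 269 CPM in ΔIDR1b. With EWS-FLI1 the libraries had 146 and 157 CPM, 219.6 and 256 CPM, and 288 and 300.0 CPM in the same order. The 3 states did not overlap in any library, and ΔIDR1b was highest. WT exceeded no ARID1A by a log2 fold change of 0.52 (SE 0.10, adjusted p = 0.000643) and 0.65 (SE 0.10, adjusted p = 1.81e-05) with the 2 vectors, and ΔIDR1b exceeded it by 0.86 (SE 0.10, adjusted p = 3.65e-08) and 0.96 (SE 0.10, adjusted p = 4.06e-09). The end of MARS1 overlaps DDIT3, a stress-induced transcription factor gene. MARS1 shares 13.3% of its exonic bases with DDIT3, ARHGAP9 and MIR6758, and fragments on shared bases were not counted for either gene. DDIT3 moved the other way, from 22.5 to 35.2 CPM in no ARID1A to 10.6 to 14.1 CPM in ΔIDR1b, and the part of the overlap in the result was not tested.

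AARS1, the alanyl enzyme, had 402 and 359 CPM in no ARID1A, 519 and 553 CPM in WT and 582 and 542 CPM in ΔIDR1b with the empty vector. With EWS-FLI1 it had 386 and 420.2, 526 and 586, and 559.7 and 626 CPM. Every WT and ΔIDR1b library lay above every no-ARID1A library, while WT and ΔIDR1b overlapped. The log2 fold change of WT was 0.49 (SE 0.10, adjusted p = 0.000727) and 0.46 (SE 0.10, adjusted p = 0.00084), and that of ΔIDR1b was 0.56 with each vector (adjusted p = 2.66e-05 and 2.76e-05).

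YARS1, the tyrosyl enzyme, showed a similar step without a further rise in ΔIDR1b. Its libraries with the empty vector had 385 and 331 CPM in no ARID1A, 478 and 496 CPM in WT and 462 and 441 CPM in ΔIDR1b. With EWS-FLI1 they had 352 and 379, 473 and 491, and 449 and 498 CPM. The no-ARID1A libraries lay below all others. WT was higher by 0.44 and 0.40 on the log2 scale (SE 0.10 each, adjusted p = 0.00206 and 0.00318) and ΔIDR1b by 0.34 and 0.37 (adjusted p = 0.00674 and 0.00237). The ΔIDR1b calls of YARS1 were lost when the trend with gene length alone was removed (adjusted p = 0.119 and 0.0603).

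IARS1, the isoleucyl enzyme of the complex, had 457 and 441 CPM in no ARID1A, 550.1 and 568 CPM in WT and 619 and 653 CPM in ΔIDR1b with the empty vector. With EWS-FLI1 it had 448 and 483, 638 and 601, and 662 and 637 CPM. Its no-ARID1A libraries were the lowest, and WT and ΔIDR1b overlapped. WT was higher by 0.32 (SE 0.09, adjusted p = 0.0181) and 0.41 (SE 0.09, adjusted p = 0.00128), and ΔIDR1b by 0.50 and 0.48 (adjusted p = 4.42e-05 and 7.34e-05).

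NARS1, which charges asparagine, had 119 and 111 CPM in no ARID1A, 155 and 151 CPM in WT and 149.8 and 145 CPM in ΔIDR1b with the empty vector. With EWS-FLI1 the values were 123 and 123, 157 and 150.1, and 165 and 153 CPM. Again no ARID1A was below both other states, which overlapped. The log2 fold change was 0.41 and 0.32 for WT (SE 0.10 each, adjusted p = 0.00536 and 0.0203) and 0.36 and 0.37 for ΔIDR1b (adjusted p = 0.00572 and 0.00332).

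TARS1, the threonyl enzyme, was highest in WT. It had 239 and 241 CPM in no ARID1A, 311 and 330.0 CPM in WT and 269.8 and 281 CPM in ΔIDR1b with the empty vector. With EWS-FLI1 it had 232 and 249.6, 341 and 288, and 289 and 301 CPM. The no-ARID1A libraries did not overlap the others, while 1 WT library with EWS-FLI1 lay within the ΔIDR1b range. WT was higher by 0.42 and 0.38 (SE 0.10 each, adjusted p = 0.00438 and 0.00511), and ΔIDR1b only with EWS-FLI1 (log2 0.29, adjusted p = 0.0193, against 0.20 and adjusted p = 0.123 with the empty vector). The interaction that tests this difference between vectors was not called for TARS1 or any other member.

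Several of these WT calls were lost when a no-ARID1A library was left out. That leaves its group with 1 library, so calls can be lost for any gene, and the loss over all genes is not given here. The log2 fold change of AARS1 with the empty vector stayed between 0.416 and 0.581 over the 21 alternatives. Without the second repeat of no ARID1A, the adjusted p with the empty vector was 0.0536 for AARS1, 0.116 for YARS1, 0.176 for IARS1, 0.116 for NARS1 and 0.058 for TARS1. Without the first repeat of no ARID1A with EWS-FLI1, it was 0.0412 for AARS1, 0.084 for YARS1, 0.0551 for IARS1, 0.138 for NARS1 and 0.109 for TARS1. MARS1 was called in all 21 alternatives, with a largest adjusted p of 0.0445.

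The cytosolic members that did not rise with both vectors in WT included WARS1 and EPRS1. WARS1, the tryptophanyl enzyme, had 139 and 132 CPM in no ARID1A, 155 and 149 CPM in WT and 166 and 161 CPM in ΔIDR1b with the empty vector, and 140.0 and 135, 148 and 145, and 154 and 170.2 CPM with EWS-FLI1. All WT libraries lay above all no-ARID1A libraries, but the log2 differences of 0.17 and 0.09 did not pass the test (adjusted p = 0.3 and 0.57). EPRS1 had 235 and 216 CPM in no ARID1A, 266 and 281 CPM in WT and 243 and 265 CPM in ΔIDR1b with the empty vector, and 234 and 237, 303 and 263, and 280.2 and 282 CPM with EWS-FLI1. Here too the no-ARID1A libraries were lowest, with log2 differences of 0.28 and 0.26 in WT that missed the threshold (adjusted p = 0.0598 and 0.0575). EPRS1 passed in 6 and 4 of the 21 alternatives, DESeq2 among them with both vectors.

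Among the mitochondrial members, HARS2 and VARS2 fell. HARS2, the mitochondrial histidyl enzyme, had 70.2 and 69.0 CPM in no ARID1A, 55.1 and 52.1 CPM in WT and 41.6 and 38.7 CPM in ΔIDR1b with the empty vector. The EWS-FLI1 libraries had 63.6 and 68.1, 52.2 and 43.7, and 34.3 and 42.5 CPM. The 3 states did not overlap, in the reverse order to MARS1. WT fell by 0.38 (SE 0.12, adjusted p = 0.0443) and by 0.46 (SE 0.13, adjusted p = 0.00991) on the log2 scale, and ΔIDR1b fell by 0.79 (SE 0.13, adjusted p = 8.3e-06) and by 0.78 (SE 0.13, adjusted p = 1.14e-05). The WT calls of HARS2 did not hold in every setting, the adjusted p being 0.23 without the second repeat of WT with the empty vector and 0.121 without the second repeat of no ARID1A with EWS-FLI1. Its ΔIDR1b calls held in all 21 alternatives.

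VARS2, the mitochondrial valyl enzyme, was the member of lowest level, with 19 to 86 counts a library. It had 5.65 and 6.43 CPM in no ARID1A, 1.64 and 2.61 CPM in WT and 2.05 and 2.22 CPM in ΔIDR1b with the empty vector. In the presence of EWS-FLI1 it had 5.71 and 5.01, 1.73 and 1.90, and 1.34 and 2.15 CPM. No-ARID1A libraries lay above all others, and WT and ΔIDR1b overlapped. VARS2 fell by 1.50 (SE 0.35, adjusted p = 0.00409) and by 1.56 (SE 0.36, adjusted p = 0.00237) in WT, and by 1.50 (adjusted p = 0.00105) and fell by 1.61 (adjusted p = 0.000638) in ΔIDR1b. The WT call of VARS2 with the empty vector was lost without the first WT repeat (adjusted p = 0.109). A further gene, ENSG00000288473, covers 63% of the exonic bases of VARS2, and fragments there were counted for neither, so VARS2 values come from the remaining bases only. ENSG00000288473 itself had 0 to 7 counts a library.

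Among the members shown, PARS2 had the largest rise in ΔIDR1b. PARS2, the mitochondrial prolyl enzyme, had 5.95 and 3.07 CPM in no ARID1A, 5.51 and 6.72 CPM in WT and 16.2 and 17.2 CPM in ΔIDR1b with the empty vector. Its EWS-FLI1 libraries had 4.35 and 2.85, 6.77 and 8.79, and 21.2 and 19.0 CPM. ΔIDR1b lay far above every other library, while no ARID1A and WT overlapped with the empty vector. The rise in ΔIDR1b over no ARID1A was 1.89 (SE 0.25, adjusted p = 3.34e-07) and 2.48 (SE 0.26, adjusted p = 3.2e-09) on the log2 scale. In WT it was 0.44 (SE 0.27, adjusted p = 0.312) with the empty vector and 1.11 (SE 0.27, adjusted p = 0.00402) with EWS-FLI1. The WT call of PARS2 with EWS-FLI1 was lost without the second repeat of no ARID1A (adjusted p = 0.11), and its ΔIDR1b calls held in all 21 alternatives. PARS2 shares no exonic base with another annotated gene, and its counts ran from 33 to 300 a library.

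ΔIDR1b against no ARID1A gave more calls in both compartments than WT did, in a comparison where more of all genes moved too. The share of the mitochondrial members called did not exceed that of all genes with either vector. With the empty vector 7 cytosolic members were higher and 2 lower, and 3 mitochondrial members were higher and 2 lower, against 16.4% higher and 16.8% lower over all genes (33.3% in all). With EWS-FLI1 the cytosolic counts were 8 and 1 and the mitochondrial counts 3 and 3, against 18.1% and 17.9% (35.9% in all). This comparison uses the same no-ARID1A libraries as that of WT. The median log2 fold change was 0.18 and 0.23 for the cytosolic members, -0.05 and 0.07 for the mitochondrial members, and 0.00 and 0.02 for all genes. The 8 members higher with both vectors included AARS1, IARS1, LARS1, MARS1, NARS1, YARS1 and PARS2, and the 3 lower were HARS1, HARS2 and VARS2. Over all genes, 12.9% were higher and 13.3% lower with both vectors. Removing the trend with gene length turned the split of the 35 members from 10 higher and 4 lower to 7 and 8 with the empty vector, and from 11 and 4 to 7 and 7 with EWS-FLI1. It lowered the cytosolic medians to 0.10 and 0.11 and set the mitochondrial medians at -0.13 and 0.00. It took LARS1 and YARS1 from the list and added GARS1, KARS1 and QARS1 as lower. Leaving out the second repeat of no ARID1A with the empty vector, or the first of ΔIDR1b with the empty vector, reduced the 11 to 7, all of them among the 11. The count called with the empty vector, 14, was 7 without either of those libraries, and the 15 with EWS-FLI1 were 8 without the first repeat of no ARID1A and 9 without the first of ΔIDR1b.

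ΔIDR1b was then set beside WT, which asks what the missing segment changes. The level of ARID1A was also higher in ΔIDR1b (log2 0.44 and 0.34, adjusted p = 0.000691 and 0.00973), so the form and the amount of ARID1A cannot be told apart. In the EWS-FLI1 libraries FLI1 was lower in ΔIDR1b (1888 to 1906 CPM) than in WT (3462 to 3675 CPM), and the part of this was not tested. With the empty vector 4 of the 35 members were higher and 6 lower, against 11.1% and 13.4% of all genes (24.5% in all). With EWS-FLI1 4 of the 35 were higher and 4 lower, against 8.48% and 10.1% (18.6% in all). With either vector the members were thus called at near the share of all genes. Under upper-quartile scaling the empty-vector libraries gave 6 higher and 4 lower members, and the EWS-FLI1 libraries 4 and 1. Of 7 members called with both vectors, 4 were higher (11.4% of the 35), MARS1, AARS2 and PARS2 among them. The other 3 were lower (8.57%), HARS1, KARS1 and QARS1. Over all genes 5.86% were higher and 7.74% lower. The mitochondrial AARS2 and PARS2 passed with both vectors in all 21 alternatives, whereas MARS1, HARS1, KARS1 and QARS1 were not called with EWS-FLI1 in a fit restricted to the 4 libraries (adjusted p = 0.175, 0.162, 0.0932 and 0.164). The 7 were 3 without the first repeat of WT with the empty vector, of ΔIDR1b with the empty vector or of ΔIDR1b with EWS-FLI1, and 4 without the first of WT with EWS-FLI1. Of the 10 called with the empty vector, 4 were called without the first repeat of WT or of ΔIDR1b. Of the 8 with EWS-FLI1, 5 were called without the first WT repeat, 3 without the first and 5 without the second of ΔIDR1b.

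PARS2 was higher in ΔIDR1b than in WT by 1.45 (SE 0.24, adjusted p = 3.26e-05) and 1.37 (SE 0.23, adjusted p = 7.98e-05). AARS2, the mitochondrial alanyl enzyme, had 62.4 and 56.0 CPM in no ARID1A, 54.6 and 54.9 CPM in WT and 79.8 and 75.8 CPM in ΔIDR1b with the empty vector. In the presence of EWS-FLI1 it had 57.2 and 65.2, 47.9 and 55.5, and 73.3 and 74.1 CPM. AARS2 was thus lowest in WT and highest in ΔIDR1b, with no overlap between states. However, AARS2 was not called between WT and no ARID1A with either vector (log2 -0.11 and -0.24), and the nearest libraries of these states had 55.5 and 56.0 CPM. Its log2 difference of ΔIDR1b to WT was 0.51 with each vector (SE 0.12 each, adjusted p = 0.00167 and 0.00232). MARS1 differed by 0.34 (SE 0.10, adjusted p = 0.011) and 0.31 (SE 0.10, adjusted p = 0.0275).

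The 3 cytosolic members lower in ΔIDR1b than in WT were not called between WT and no ARID1A. HARS1 had 103 and 104 CPM in no ARID1A, 111 and 105 CPM in WT and 79.4 and 87.6 CPM in ΔIDR1b with the empty vector, and 95.2 and 98.9, 101 and 99.0, and 83.2 and 77.3 CPM with EWS-FLI1. Every ΔIDR1b library of HARS1 lay below every other one. It was lower than WT by a log2 of -0.37 (SE 0.10, adjusted p = 0.00821) and -0.32 (SE 0.11, adjusted p = 0.0305), and its log2 difference to no ARID1A was -0.31 (adjusted p = 0.0215) and -0.27 (adjusted p = 0.0406). The calls against no ARID1A were lost in 3 of 21 alternatives with the empty vector (adjusted p up to 0.225, without the first ΔIDR1b repeat) and in 10 of 21 with EWS-FLI1 (up to 0.232, without the second ΔIDR1b repeat).

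KARS1, the lysyl enzyme of both compartments, had 190.2 and 198 CPM in no ARID1A, 211 and 201 CPM in WT and 162 and 169 CPM in ΔIDR1b with the empty vector, and 191 and 193, 231 and 204, and 158 and 176 CPM with EWS-FLI1. The states did not overlap. ΔIDR1b differed from WT by -0.32 and -0.38 (SE 0.10 each, adjusted p = 0.0182 and 0.00646), while -0.23 and -0.20 against no ARID1A missed the threshold (adjusted p = 0.0722 and 0.115). QARS1, the glutaminyl enzyme, which has no mitochondrial counterpart among the members, had 177 and 181 CPM, 214 and 182 CPM, and 146 and 154 CPM in the 3 states with the empty vector, and 161 and 169, 183 and 179.7, and 142 and 152 CPM with EWS-FLI1. Its ΔIDR1b libraries were below all others. ΔIDR1b differed from WT by -0.40 and -0.30 (SE 0.10 each, adjusted p = 0.00339 and 0.0314).

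GARS1, the glycyl enzyme of both compartments, followed the same order without passing with both vectors. It had 309 and 301 CPM in no ARID1A, 321 and 359.8 CPM in WT and 264 and 257 CPM in ΔIDR1b with the empty vector, and 310.1 and 324, 347 and 318, and 277 and 282 CPM with EWS-FLI1. Every ΔIDR1b library was below every other library. The log2 difference to WT was -0.38 (SE 0.09, adjusted p = 0.00291) and -0.25 (SE 0.09, adjusted p = 0.0613).

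Summed over the 18 cytosolic members, the level was 4191 to 4451 CPM in no ARID1A, 5082 to 5254 CPM in WT and 4916 to 5270 CPM in ΔIDR1b. The no-ARID1A libraries lay below the rest, and the other states overlapped. The 17 mitochondrial members summed to 779 to 818.5 CPM in no ARID1A, 776 to 811 CPM in WT and 843 to 874 CPM in ΔIDR1b. Here no ARID1A and WT overlapped, and ΔIDR1b was above both. The sums are dominated by abundant members and carry no test.

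The 2 enzymes for the same amino acid were compared in 16 pairs, with EPRS1 set beside both EARS2 and PARS2. The cytosolic gene had the larger log2 fold change in 14 of the 16 in each of the 4 contrasts with no ARID1A, and proline was among the exceptions. In WT against no ARID1A with the empty vector, 7 pairs had only the cytosolic gene called, 2 only the mitochondrial gene, and 7 neither. With EWS-FLI1 these counts were 5, 3 and 6. The methionyl pair MARS1 and MARS2 was then the single pair with both genes higher, and the valyl pair was called in opposite directions, VARS1 being higher (log2 0.33, adjusted p = 0.0322). In ΔIDR1b against no ARID1A both genes of the histidyl pair were lower with either vector. Both genes were higher in the alanyl pair with the empty vector, and in the prolyl and methionyl pairs with EWS-FLI1. Against WT, the cytosolic gene had the larger log2 fold change in 8 and 7 of the 16 pairs. Calls are not equally easy in the 2 compartments, as the median level was 38.4 CPM for the mitochondrial and 214.3 CPM for the cytosolic members. In WT against no ARID1A with the empty vector, MARS2 at a log2 of 0.41 was not called, while LARS1 at 0.30 was.

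HARS1 and HARS2 are neighbours that start back to back, and their shared stretch is printed because both fell in ΔIDR1b. On chromosome 5 (GRCh38.p14, RefSeq starts) HARS1 begins at 140691370 on the minus strand and HARS2 at 140691455 on the plus strand, 84 bases apart. In the annotation used for counting the genes overlap instead, HARS1 reaching 140691537 and HARS2 beginning at 140691430. The stretch between the RefSeq starts, chr5:140691371-140691454 on the plus strand, reads as follows.
HARS1/HARS2: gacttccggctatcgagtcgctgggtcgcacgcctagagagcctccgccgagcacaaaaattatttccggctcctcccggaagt
Over its whole length HARS1 shares 8.5% of its exonic bases with DND1, HARS2 and WDR55, and HARS2 shares 7% with HARS1 and ZMAT2, and fragments on shared bases were not counted. In WT the 2 genes differed in outcome, HARS2 being lower and HARS1 showing 0.06 and 0.05 on the log2 scale (adjusted p = 0.747 and 0.815).

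Promoters of the members were searched for the letters TGATGNAA, the core of the composite element that C/EBP and ATF factors bind, on both strands of windows from 250 bases before to 50 bases after each RefSeq start (GRCh38.p14). Windows were found for 28 of the 35 members, 14 cytosolic and 14 mitochondrial. A match was held by 3.62% of all 35116 promoter windows of RefSeq. Among the cytosolic members 7 of 14 genes held a match, namely AARS1, CARS1, GARS1, IARS1, MARS1, NARS1 and TARS1, and among the mitochondrial members 1 of 14, YARS2. Some genes have several windows, and a gene was counted if any of them matched. Counted per window, as for all of RefSeq, 7 of 19 cytosolic windows (36.8%) and 1 of 18 mitochondrial windows (5.56%) held a match. CARS1, GARS1 and TARS1 each have a further window without a match. The sequences around the match are shown for every member that held one, whether or not its level changed. Each line gives 30 bases 5′ to 3′ on the strand of the gene with the match in capitals, which reads TTNCATCA where the motif lies on the other strand.
AARS1: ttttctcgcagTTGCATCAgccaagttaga
CARS1: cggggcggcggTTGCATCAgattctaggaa
GARS1: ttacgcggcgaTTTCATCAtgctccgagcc
IARS1: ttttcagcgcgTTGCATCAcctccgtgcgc
MARS1: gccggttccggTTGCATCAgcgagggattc
NARS1: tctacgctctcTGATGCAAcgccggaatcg
TARS1: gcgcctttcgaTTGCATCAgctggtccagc
YARS2: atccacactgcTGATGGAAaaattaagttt
The stretches lie at chr16:70289675-70289704 for AARS1 (minus strand), chr11:3057407-3057436 for CARS1 (minus strand), chr7:30594834-30594863 for GARS1 (plus strand), and chr9:92293692-92293721 for IARS1 (minus strand). Those of the others lie at chr12:57488053-57488082 for MARS1 (plus strand), chr18:57621804-57621833 for NARS1 (minus strand), chr5:33440956-33440985 for TARS1 (plus strand), and chr12:32756076-32756105 for YARS2 (minus strand). Counted from the first base of the RefSeq transcript as 1, the match began at position -187 in AARS1, -2 in CARS1, -33 in GARS1 and -13 in IARS1. It began at -4 in MARS1, 15 in NARS1, 3 in TARS1 and -197 in YARS2. In the annotation used for counting, the genes other than YARS2 begin further upstream. Their stretches lie inside the gene span there, and only that of YARS2 lies before its gene.
Over all genes tested, 4.84% were higher and 3.52% lower with both vectors in WT, and 12.9% and 13.3% in ΔIDR1b. The shares among all genes with a match were not computed. Of the 7 cytosolic genes with a match, 5 were higher in WT with both vectors (AARS1, IARS1, MARS1, NARS1 and TARS1) and 4 in ΔIDR1b, and 0 were lower. Of the 7 cytosolic genes with a window and no match (EPRS1, HARS1, KARS1, QARS1, RARS1, SARS1 and WARS1), 0 were higher with both vectors in either state, and HARS1 was lower in ΔIDR1b. CARS1 and GARS1 held a match and were not called in WT with either vector, and YARS2 was not called in any contrast. The other 7 members, YARS1 among them, were not searched. A match is a run of letters and not a measured binding site, and these counts were not tested.

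The known targets of ATF4 outside the synthetases moved in both directions. Of 24 listed genes, ATF4 included, 7 were higher with both vectors in WT than in no ARID1A and 4 were lower, where 4.84% and 3.52% of all genes were, in a list written with earlier results of these data known. The higher ones included the stress-induced pseudokinase TRIB3 (log2 0.56 and 0.91), the glutathione-degrading enzyme CHAC1 (1.98 and 2.34), SESN2 (0.80 and 0.98) and the amino acid transporters SLC7A11 (0.71 and 0.52) and SLC7A5 (0.65 and 0.86), with ATF3 and HERPUD1. The lower ones were DDIT4 (log2 -0.93 and -1.16), SLC3A2 (-0.57 and -0.72), STC2 and PPP1R15A. In ΔIDR1b 5 of the 24 were higher and 9 lower, where 12.9% and 13.3% of all genes were, and the lower ones included DDIT3, ATF3, HERPUD1, SHMT2 and ASNS, the asparagine synthetase (log2 -0.50 and -0.80). ATF4 itself had 699 to 796.5 CPM in no ARID1A, 802 to 870.5 CPM in WT and 615.5 to 759.9 CPM in ΔIDR1b. Its log2 fold change to no ARID1A was 0.15 and 0.10 in WT and -0.18 and -0.11 in ΔIDR1b, none of them called, and ATF4 is named as the factor of the list after its values were seen.

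Other genes of tRNA charging and elongation are given by their calls shared by both vectors, to be read against the same shares over all genes, and against 5.86% higher and 7.74% lower between ΔIDR1b and WT. Among 6 related genes outside the rule, AIMP2, a scaffold protein of the multi-synthetase complex, was higher in WT (log2 0.61 and 1.17) and in ΔIDR1b (0.84 and 1.25), while AIMP1, another scaffold, was lower in ΔIDR1b (-0.31 with each vector). Of 13 partners of mitochondrial translation, TUFM, the mitochondrial elongation factor, was higher in WT (0.36 and 0.32), and MTFMT, which formylates the initiator tRNA, and GFM2 were higher in ΔIDR1b (0.54 and 0.69, and 0.34 and 0.44). Of 4 cytosolic elongation factors tested, EEF1A1 (-0.45 and -0.42) and EEF1B2 (-0.38 and -0.37) were lower in ΔIDR1b than in no ARID1A and EEF1D was higher (0.37 and 0.39). Against WT, EEF1A1 (-0.48 and -0.45), EEF1B2 (-0.52 and -0.35) and EEF2 (-0.40 and -0.36) were lower in ΔIDR1b, 3 of the 4. Of 6 listed genes of growth and amino acid supply, MYC (0.61 and 1.02) and the arginine transporter SLC7A1 (0.36 and 0.48) were higher in WT. In ΔIDR1b MYC (0.48 and 0.72), SLC7A1 (0.85 and 1.00) and SLC1A5 (0.30 and 0.44) were higher, and NPM1 was lower (-0.53 and -0.38).

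No change of a member with EWS-FLI1 was detected at this depth. The edgeR quasi-likelihood test called 0 of 35 members in no ARID1A (0.0442% of all genes were called), 0 in WT (0.221%), 0 in ΔIDR1b (0.172%) and 0 in the average over the 3 states (0.466%). At an unadjusted p under 0.05 the count was also 0 in each, and DESeq2 called 0. Over the 20377 genes tested, 643, 1331, 1110 and 1610 had an unadjusted p under 0.05 in the same order. In the average, the log2 fold changes ran from -0.23 for VARS2 to 0.10 for LARS1, and the 95% intervals of the cytosolic members lay within -0.21 to 0.22. Those of the mitochondrial members lay within -0.66 to 0.40, the outer bounds belonging to members of low count. The smallest adjusted p in the average was 0.69, for LARS1. The 3 interactions, which test whether EWS-FLI1 acted differently between ARID1A states, also called 0 members (0.0245%, 0.0196% and 0% of all genes), and DESeq2 called 0. At an unadjusted p under 0.05 they held 0 members, against 884, 702 and 741 of all genes. With EWS-FLI1, FLI1 was higher in WT (3462 to 3675 CPM) than in no ARID1A (1688 to 1830 CPM) and ΔIDR1b (1888 to 1906 CPM). In the interactions that involve WT, the ARID1A state and the amount of the fusion cannot be told apart. The intervals of the interactions were wider, from -0.50 to 0.53 for the cytosolic members between WT and no ARID1A.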

How the data were processed

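PolyA RNA was sequenced from 12 HEK-293T libraries, 2 in each of 6 groups. The deposited values are raw counts of read pairs per gene name. Per the file headers they were made with featureCounts 2.0.1 over exons of GENCODE release 41 (GRCh38 patch 13), with no strand option and with fragments over several genes left out. STAR, SAMtools and edgeR are named in the submitters' processing notes.

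From the counts, genes were filtered (minimum count 10, minimum total 15), which kept 20377 genes with 99.79% to 99.87% of the counts, and scaled by TMM. A quasi-likelihood model with 1 mean per group over all 12 libraries was fitted in edgeR 4.0.16 (limma 3.58.1, R 4.3.3), with 13 contrasts and Benjamini-Hochberg adjustment over all genes tested at 0.05. The script was tested on simulated data. Totals of 11702251 to 14445379 counts gave a common biological coefficient of variation of 10.1%. The alternatives were other scalings, no filter, DESeq2 1.42.0, fits of only the libraries compared, replicate blocks, removal of the trend with gene length and leaving out each library.

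The members and lists were chosen with earlier results of these data known. Library values and full statistics are given for the 5 cytosolic and 3 mitochondrial members with the largest mean change among those called with both vectors in each pair of states, for the highest and lowest member per kb, and for 7 members of known role. Promoter sequences come from RefSeq (GRCh38.p14), which matched 28 of the 35 members. Principal transcript lengths come from GENCODE release 29. Protein sequences were not used here. Counts, medians and sums cover all 35 members and all 16 pairs. Of these, 2 members are not reported here by name and are left out of the figures that name genes or amino acids.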

Additional observations from a re-analysis of the deposited data

How the results depend on the processing

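No value of a named member that was called changed sign in any alternative. The count of members called between ΔIDR1b and WT with EWS-FLI1, 8, was 5 with upper-quartile factors and 3 in a fit of only the libraries compared. The 7 called with both vectors were 4 and 3 in the same settings, and 11 with the length trend removed together with a replicate block within each vector. In the latter, EARS2, GARS1, HARS2 and RARS2 were added. The causes were not tested. Leaving out 1 library at a time gave 1 to 9 members with both vectors for WT against no ARID1A, 7 to 13 for ΔIDR1b against no ARID1A and 3 to 9 for ΔIDR1b against WT. By contrast it gave 1 to 12 and 5 to 13 for WT against no ARID1A with the empty vector and EWS-FLI1, 7 to 18 and 8 to 18 for ΔIDR1b against no ARID1A, and 4 to 12 and 3 to 10 for ΔIDR1b against WT. Where this left a group with 1 library, its spread was taken from the other groups. Calls can then be lost for any gene, and the shares over all genes in these settings are not given here. The EWS-FLI1 contrasts and interactions gave 0 members in every alternative run. Deviations of same-numbered libraries correlated at 0.081 to 0.343 within a vector and at -0.166 to -0.006 across vectors over 12290 genes. The labels give no pairing and not every within-vector value passed 0.1, so whether repeats share a batch within a vector is unsettled and no pairing was assumed. A replicate block over all libraries gave 8, 11 and 7 members with both vectors, as without it, and a replicate block within each vector gave 10 (EPRS1 and LARS1 added), 13 (AARS2 and WARS1) and 9 (GARS1 and HARS2). Leaving out the 3 members that share over 15% of their exonic bases, SARS2, VARS2 and YARS2, was chosen after seeing the data. Among members of low count, VARS2 had 19 to 86, SARS2 50 to 114 and PARS2 33 to 300 counts a library.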
